A study of Drosophila melanogaster with 17 samples.

Results

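A set of 7 transcripts in fly glia lay on the same side of the sham level 1, 3 and 7 days after a head injury. CG40470 and Ect3 were lower after traumatic brain injury (TBI) on all 3 days, and serp, CG3630, CG1648, Skel and Sfp84E were higher. These 7 genes were selected on measured values. For each of them TBI and sham libraries of a day did not overlap, always in the same direction, and the means of log2(TPM + 1) differed by at least 0.6 on each day. TPM is a relative transcript abundance scaled for transcript length and library size. The selection left out genes of larger families and pathways, so 7 genes remained of the 9 that met the numeric limits, among 13479 genes listed and 12665 above 0 TPM in at least 1 library. The other two were sls and mle, both higher after TBI.

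The libraries came from translating ribosome affinity purification (TRAP-seq) of heads of flies in which the pan-glial driver repo-GAL4 expresses UAS-GFP::RpL10A, a GFP-tagged ribosomal protein, so that ribosome-bound RNA of glia can be pulled down. Both groups carried the driver and the tag. TBI flies had received solenoid strikes to the head (dCHI, the closed head injury of this study) while awake, and sham flies, whose treatment the labels give as none, had not. There were 3 TBI and 3 sham libraries on day 1, 3 and 3 on day 3, and 2 TBI and 3 sham libraries on day 7, each from pooled heads collected at lights-on, and the authors had removed the remaining TBI library of day 7. In the labels the same days carry the numbers 3, 6 and 10, and the flies are recorded as female where the study's text gives males. The study's general methods give young adult flies 3 to 7 days old of the iso31 strain, without saying whether that is the age at injury or at collection. Age, time since treatment and collection therefore cannot be told apart in comparisons between days. A pulldown from whole heads does not separate fewer glial cells from less RNA per cell, and it also carries RNA of other cells.

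Glia of the adult fly brain include astrocytes, ensheathing glia, cortex glia and the barrier-forming surface glia. They recycle transmitters, supply neurons, clear debris after injury and seal the brain from the hemolymph. The 7 genes do not belong to one pathway. CG40470 is placed by sequence among the M1 aminopeptidases, metalloproteases that trim the amino end of peptides. Ect3 (Ectoderm-expressed 3) is a predicted lysosomal beta-galactosidase. serp (serpentine) encodes a secreted chitin deacetylase that, with its neighbour verm (vermiform), sets the length of tracheal tubes in the embryo. Skel (Skeletor) encodes a nuclear protein that leaves the chromosomes to join a spindle-associated matrix during mitosis in the embryo. Sfp84E carries the name of a seminal fluid protein, and no role is given here for CG3630 and CG1648.

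Libraries were similar in total, with 832800 to 854953 TPM in the listed genes and 9880 to 11350 genes above 0. TPM keeps no read depth, so the spread between libraries was the only measure of precision, and nothing in the labels states how the pools were separated. The defining glial markers repo and alrm were present in all libraries, at 31.1 to 61.7 TPM for repo in TBI and 49.7 to 82.3 TPM in sham libraries of day 1. The pulldown also held photoreceptor RNA, with the 7 photoreceptor markers adding up to 25470 to 33480 TPM in TBI and 44410 to 46080 TPM in sham libraries of day 1, several times the sum of the 10 glial markers. A list of 30 midgut digestive enzyme genes summed to between 547 and 1014 TPM in TBI and between 6.81 and 16.2 TPM in sham libraries of day 1. It was also high in sham day 3 replicate 2 (840.3 TPM) and in TBI day 7 replicate 1 (910.2 TPM), against at most 31.5 TPM in the other libraries of days 3 and 7. All 7 genes still met the rule when these 2 libraries were left out. On day 7 the median TBI minus sham difference was 0.29 on the log2 scale over the 8766 genes averaging 1 TPM or more. It was -0.03 on day 1 and 0.02 on day 3.

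**Figure D1:**
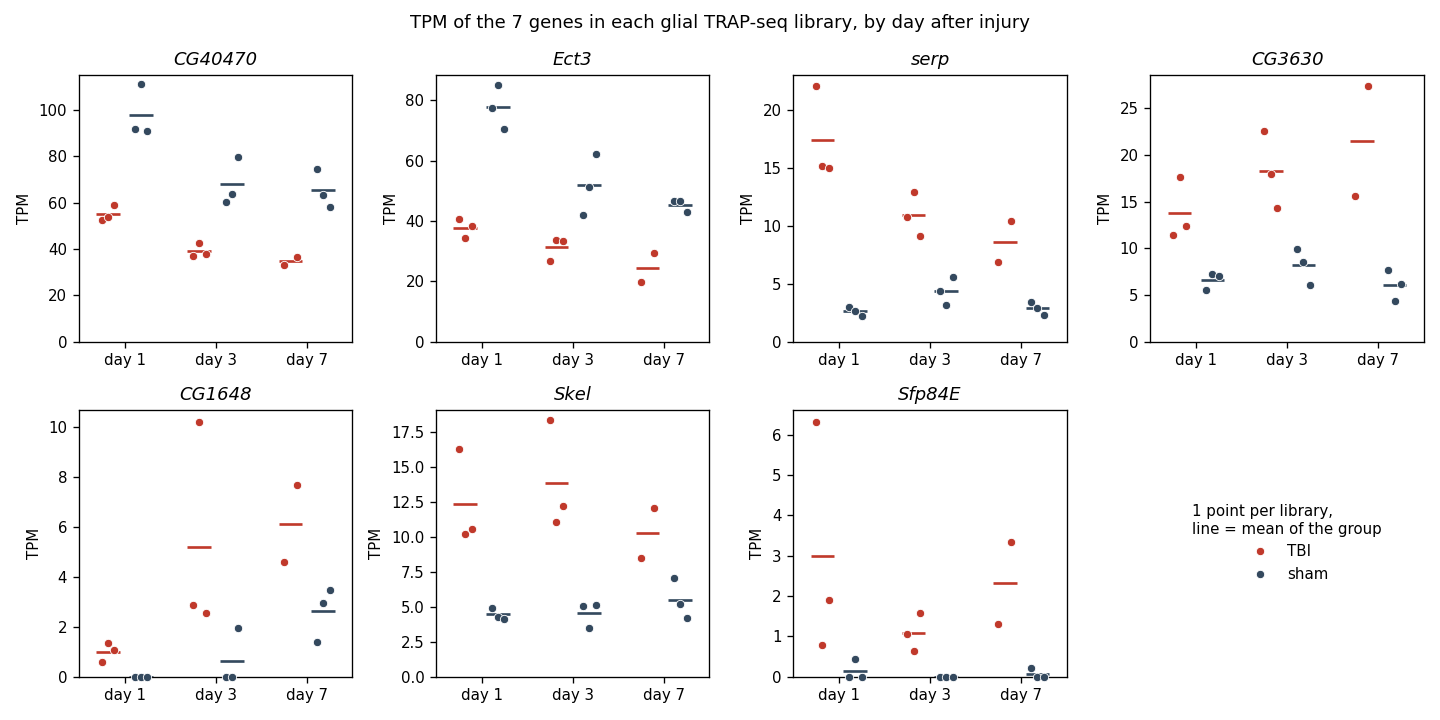
TPM of each gene (vertical axes, linear) in the 17 libraries by day, TBI in red left of sham in dark blue, with 1 point per library and a line at the group mean. CG40470 and Ect3 lie lower in TBI libraries on all 3 days and the other 5 genes higher, with no overlap between groups of a day.

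CG40470 was one of the better expressed transcripts of the pulldown, and it was lower after TBI on each day. It is a long gene, spanning positions 23839860 to 23986410 on the minus strand of chromosome 3L (release 6 of the fly genome), with 1 annotated transcript whose exons cover 2990 bases and an intron of up to 39476 bases. The TBI libraries of day 1 held 52.3, 53.7 and 59.0 TPM, against 91.8, 111 and 90.7 TPM in the sham libraries. The TBI libraries of day 3 held 37.1, 42.5 and 38.0 TPM, against 60.3, 63.5 and 79.6 TPM in sham. The 2 TBI libraries of day 7 held 32.9 and 36.6 TPM, against 74.7, 63.1 and 58.2 TPM in sham. The gap between the groups was wider than the range of either TBI or sham libraries of day 1, and the TBI level was 0.562, 0.578 and 0.532 of the sham level on days 1, 3 and 7. The differences in mean log2(TPM + 1) were nearly the same on the 3 days, at -0.82 ± 0.11, -0.77 ± 0.13 and -0.89 ± 0.13 (standard error over libraries). In sham libraries CG40470 ranked 1234th of the 11939 genes above 0.

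Ect3, the predicted beta-galactosidase, followed the same pattern. It lies on the plus strand of chromosome 3R at 11999278 to 12003516 and has 1 annotated transcript. On day 1 it was listed at 40.6, 34.4 and 38.2 TPM in TBI libraries and at 77.4, 85.1 and 70.5 TPM in sham libraries. The values of day 3 were 26.7, 33.8 and 33.4 TPM in TBI and 42.1, 51.3 and 62.1 TPM in sham libraries. On day 7 they were 19.7 and 29.3 TPM in TBI and 46.7, 46.6 and 42.9 TPM in sham libraries. TBI libraries were the lower ones on every day, with the narrowest gap on day 3, where the highest TBI and the lowest sham library lay 0.31 apart on the log2 scale. The mean differences were -1.02 ± 0.10 on day 1, -0.70 ± 0.19 on day 3 and -0.89 ± 0.28 on day 7. Ect3 had the smallest difference of the 7 genes that counted for the rule, and without replicate 1, where the day 7 difference was -0.59, it no longer met it.

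The chitin deacetylase gene serp showed the largest day 1 difference of the 7 on the log2(TPM + 1) scale. With 0.1 TPM as the pseudocount it was 2.67, against 3.69 for Sfp84E and 3.38 for CG1648. It is read from the minus strand of chromosome 3L, 19700977 to 19708015, with 2 annotated transcripts. The TBI libraries of day 1 held 22.1, 15.2 and 15.0 TPM, against 2.99, 2.66 and 2.22 TPM in sham libraries. On day 3 there were 10.8, 13.0 and 9.12 TPM in TBI and 4.40, 3.21 and 5.59 TPM in sham libraries. On day 7 there were 6.84 and 10.4 TPM in TBI and 3.44, 2.92 and 2.29 TPM in sham libraries. The TBI level was 6.65 times the sham level on day 1, 2.49 times on day 3 and 3.00 times on day 7, while the sham level stayed between 2.22 and 5.59 TPM. On the log2(TPM + 1) scale the differences were 2.33 ± 0.19, 1.16 ± 0.23 and 1.30 ± 0.30.

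CG3630, on the X chromosome (2162196 to 2172281, plus strand, 4 transcripts), was higher after TBI by a factor that was largest on day 7. Its day 1 values were 11.4, 17.6 and 12.4 TPM in TBI and 5.56, 7.29 and 7.03 TPM in sham libraries. On day 3 TBI libraries held 22.6, 18.0 and 14.3 TPM and sham libraries 9.91, 8.51 and 6.10 TPM. On day 7 TBI libraries held 15.6 and 27.4 TPM and sham libraries 7.65, 4.33 and 6.16 TPM. The 2 TBI libraries of day 7 were far apart from each other, and the lower one was still above all sham libraries of the series. TBI over sham ratios of the means were 2.09, 2.24 and 3.56 on days 1, 3 and 7, with log2 differences of 0.94 ± 0.21, 1.07 ± 0.26 and 1.65 ± 0.44. The day 7 difference was 2.20 without replicate 1 and 1.08 without replicate 2, so the 2 TBI libraries of that day set its size.

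Skel, the gene of the spindle matrix protein Skeletor, lies on the plus strand of chromosome 3R (10686943 to 10696270) and has 4 annotated transcripts. On day 1 TBI libraries held 16.3, 10.2 and 10.5 TPM, against 4.88, 4.29 and 4.14 TPM in sham libraries. On day 3 they held 18.3, 11.0 and 12.2 TPM, against 5.03, 3.48 and 5.10 TPM in sham libraries. On day 7 they held 8.48 and 12.0 TPM, against 7.02, 5.16 and 4.20 TPM in sham libraries. The groups were well apart on days 1 and 3 and close on day 7, where the lower TBI library and the highest sham library differed by 0.24 on the log2 scale. The differences were 1.27 ± 0.21, 1.40 ± 0.26 and 0.81 ± 0.29. After scaling each library by its median ratio to the others, which brings the median gene of day 7 to 0.02, the day 7 difference of Skel was 0.55 and it no longer met the rule.

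CG1648 and Sfp84E were near the lower end of the table, and several libraries listed them at 0. CG1648 lies on chromosome 2R, 9810974 to 9820053, on the minus strand. Its day 1 values were 0.565, 1.33 and 1.08 TPM in TBI libraries, against 0 in the 3 sham libraries. On day 3 it was at 2.85, 10.2 and 2.54 TPM in TBI libraries and at 0, 0 and 1.92 TPM in sham libraries. On day 7 it was at 4.57 and 7.67 TPM in TBI libraries and at 1.39, 2.95 and 3.48 TPM in sham libraries. No fold is given against a group listed at 0, and on day 7, the only day with all libraries above 0, the ratio of means was 2.35. The log2(TPM + 1) differences of 0.97 ± 0.17, 1.90 ± 0.74 and 1.00 ± 0.42 depend on the pseudocount, and with 0.1 TPM in place of 1 the difference of day 1 was 3.38. A single TBI library set the size of the day 3 difference, which was 1.11 without replicate 2. With median-ratio or upper-quartile scaling of the libraries CG1648 no longer met the rule.

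Sfp84E is a short gene on chromosome 3R (7979588 to 7980322, minus strand) with 685 exon bases, and it was the least expressed of the 7. On day 1 TBI libraries held 6.31, 0.793 and 1.90 TPM, and sham libraries 0, 0.432 and 0 TPM. On day 3 TBI libraries held 1.06, 0.637 and 1.57 TPM, and all 3 sham libraries were listed at 0. On day 7 TBI libraries held 1.30 and 3.33 TPM, and sham libraries 0.210, 0 and 0 TPM. TBI libraries were above 0 throughout, while 7 of the 9 sham libraries were listed at 0. On the log2(TPM + 1) scale the differences were 1.58 ± 0.62, 1.04 ± 0.19 and 1.57 ± 0.47, and with 0.1 TPM as the pseudocount they were 3.69, 3.50 and 3.91. Without replicate 1, which held 6.31 TPM in TBI, the day 1 difference was 0.93. Because a listed 0 can be a failed estimate, it was checked how often well expressed genes are listed at 0. This was so for 1 of the 3089 genes with 20 TPM or more in at least 14 libraries. The check does not reach genes as low as Sfp84E and CG1648, and so says nothing about their zeros.

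**Figure D2:**
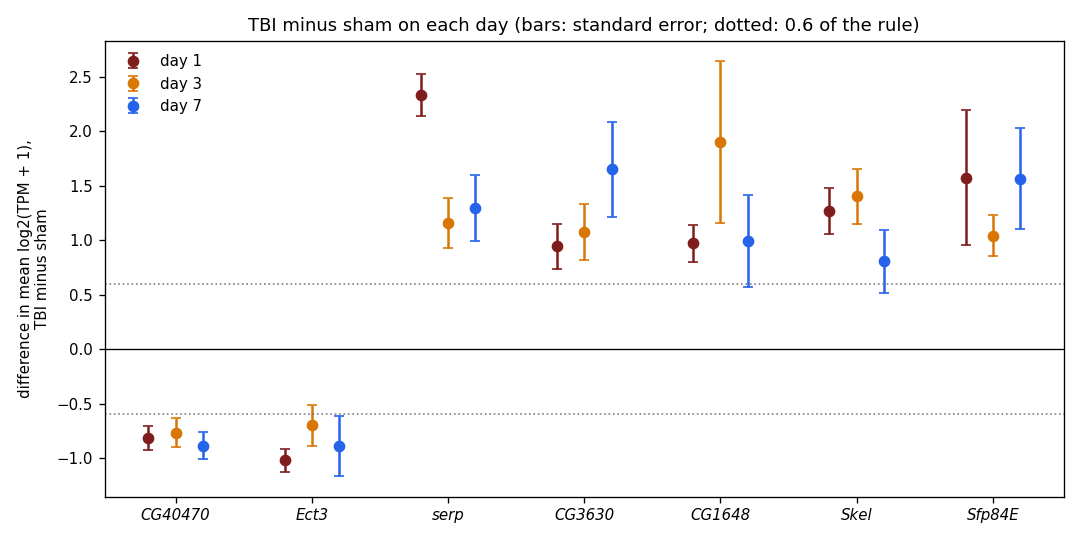
TBI minus sham difference of each gene in mean log2(TPM + 1) on days 1, 3 and 7 (colours), with bars of 1 standard error over libraries and dotted lines at the limit of 0.6. CG40470 and Ect3 lie between -1.02 and -0.70 and the 5 raised genes between 0.81 and 2.33, with the widest bar for CG1648 on day 3.

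The limits of the rule can be read against the whole table. On day 1, 5.9% of 12085 genes were higher after TBI without overlap and by at least 0.6, and 1.76% were lower. The day 3 shares were 1.49% higher and 0.684% lower of 11835 genes, and on day 7 they were 6.98% higher and 0.543% lower of 11966 genes. All 3 days together were met by 7 genes higher (0.0553% of 12665) and 2 lower (0.0158%), so that both lowered genes are among the 7 described here. Without the limit on size, 43 genes were free of overlap in one direction on all days, 23 higher (0.182% of 12665) and 20 lower (0.158%) after TBI. The rule used these differences, and no test of TBI against sham is given for its members. Just inside the limit was Ect3, with a smallest difference of 0.70 in size, followed by mle with 0.75 and CG40470 with 0.77. Just outside were CG4829, lower after TBI with a smallest difference of 0.58 in size, and Ugt35B1, a UDP-glycosyltransferase gene, also lower, with 0.56. FBgn0052138, a gene without a symbol in the reference table, was higher, also with 0.56.

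Glial markers were lower after TBI as well, beside CG40470 and Ect3. Of the 10 marker genes 9 were lower on day 1, 8 on day 3 and 10 on day 7, with medians of -0.54, -0.22 and -0.47 against 0.02, 0.03 and 0.23 over all genes tested. In limma, adjusted over all genes, 2 of the 10 fell on day 1, where 0.67% of 12085 genes were called lower and 2.19% higher. They were alrm, the astrocyte leucine-rich repeat gene (291 ± 55.5 TPM in TBI and 524 ± 105 TPM in sham, SD, n = 3 each, log2 difference -0.84, adjusted p = 0.0678 in limma), and wrapper, a cell adhesion gene of midline and cortex glia (-0.74, adjusted p = 0.0468 in limma). The markers summed to 3207 to 4446 TPM in TBI and 4311 to 6274 TPM in sham libraries of day 1. On day 3 the sums were 3080 to 3216 TPM in TBI and 3673 to 4306 TPM in sham, and on day 7 they were 2111 to 2725 TPM in TBI and 3378 to 4688 TPM in sham. None of the 10 markers was listed at 0 in any library. Gat and Gs2, the GABA transporter and glutamine synthetase genes, were the 2 free of overlap on all 3 days, with differences of -0.54, -0.27 and -0.71 for Gat and -0.64, -0.31 and -0.80 for Gs2.

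**Figure D3:**
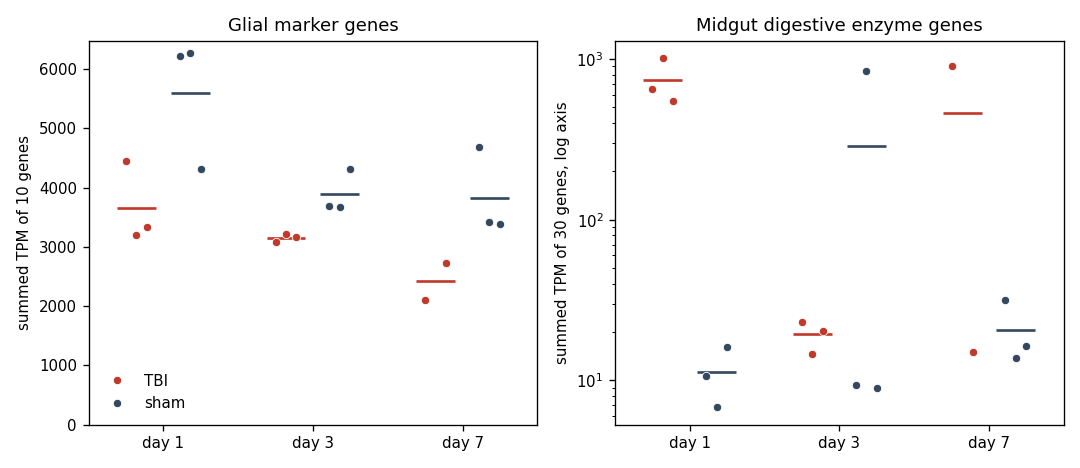
Summed TPM of 10 glial marker genes (left, linear axis) and of 30 midgut digestive enzyme genes (right, log axis) in each library by day, TBI in red left of sham in dark blue, with lines at the group means. The glial sum is lower in TBI libraries on days 3 and 7 without overlap, and the midgut sum is at 547 TPM or more in all TBI libraries of day 1, in 1 sham library of day 3 and in 1 TBI library of day 7.

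The part of the glial markers in the decrease of CG40470 and Ect3 was not tested, and their values relative to the markers were computed as a setting chosen after seeing the data. With the mean log2(TPM + 1) of the 10 markers subtracted in each library, CG40470 differed by -0.39 on day 1, where the groups then overlapped, by -0.61 on day 3 and by -0.44 on day 7. Ect3 differed by -0.60, -0.54 and -0.44 and was still free of overlap on each day. Both were then short of 0.6 on at least 1 day and no longer met the rule. The marker mean itself differed by -0.42, -0.16 and -0.44 on days 1, 3 and 7, and its subtraction shifts the difference of every gene by the same amount. Differences of raised genes therefore had to grow and those of lowered genes to shrink. The 5 raised genes met the rule on this scale too. Their differences were 2.76, 1.32 and 1.74 for serp on days 1, 3 and 7 and 1.69, 1.57 and 1.25 for Skel.

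What the rule did not use is the level of the genes from day to day. Asking for groups without overlap did favour genes with a small spread between libraries of a group. That spread also enters the comparison of days, so calls of the 7 genes are not independent of their selection. The later days were compared with day 1 on the average of the TBI and sham means, with limma on all 17 libraries. This average leaves the difference between TBI and sham out of the contrast for days 1 and 3. For day 7, with 2 TBI and 3 sham libraries, it does so only nearly. A difference was called when its size on the log2 scale reached 0.6 and its p, adjusted over all genes, did not exceed 0.1. On day 7, 3 of the 7 genes differed from day 1, CG40470 and Ect3 lower and CG1648 higher, while 0.237% of 12665 genes were called lower and 0.0869% higher. With the replicate number as a random block 0 of the 7 were called, at adjusted p = 0.103 for CG40470, 0.147 for Ect3 and 0.202 for CG1648 in limma. On day 3, 0 of the 7 were called, against 0.111% of 12665 genes called lower and 0% called higher in limma. At an unadjusted p under 0.05 in limma there were 650 genes, among them 3 of the 7, CG40470, Ect3 and CG1648.

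CG40470 was lower on day 7 than on day 1 by a log2 difference of -0.61 (standard error 0.10, adjusted p = 0.0315 in limma), and the decrease was present in TBI libraries (-0.65) and in sham libraries (-0.58). The sham means were 65.3 ± 8.43 TPM on day 7 and 97.9 ± 11.5 TPM on day 1 (SD, n = 3 each). The day 3 difference to day 1 was -0.50 (adjusted p = 0.0919 in limma), short of 0.6.

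Ect3 was lower on day 7 than on day 1 by -0.69 (standard error 0.12, adjusted p = 0.0532 in limma), with -0.62 in TBI and -0.76 in sham libraries. Its sham mean was 45.4 ± 2.19 TPM on day 7 and 77.7 ± 7.29 TPM on day 1 (SD, n = 3 each). On day 3 the difference was -0.43 (adjusted p = 0.489 in limma). For both genes the sham libraries of days 3 and 7 lay below all sham libraries of day 1. Across the 10 other fits the sign of the day 7 difference stayed, but it was called for CG40470 in 5 of them and for Ect3 in 6, and leaving out replicate 1, 2 or 3 left 0, 1 and 0 of the 7 genes called.

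CG1648 was higher on day 7 than on day 1 by 1.81 (standard error 0.35, adjusted p = 0.0624 in limma), by 1.82 in TBI and 1.80 in sham libraries. It was listed at 0 in all sham libraries of day 1 and above 0 in all of day 7, so this value too depends on the pseudocount. On day 3 the difference was 0.98 (adjusted p = 0.750 in limma). After upper-quartile or median-ratio scaling the day 7 difference was no longer called, at 1.76 (adjusted p = 0.108 in limma) and 1.73 (adjusted p = 0.134 in limma), and over the 10 other fits the adjusted p ran from 0.0404 to 0.338.

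For the other raised genes no difference between days passed. On day 7 serp differed from day 1 by -0.42 (standard error 0.18, adjusted p = 0.589 in limma), with -0.94 in TBI and 0.10 in sham libraries. CG3630 differed by 0.22 (standard error 0.21), Sfp84E by -0.09 (standard error 0.30) and Skel by -0.00 (standard error 0.19), all at an adjusted p of 0.810 or higher in limma. A p above the limit does not show that these levels were the same. Without sham day 3 replicate 2 and TBI day 7 replicate 1, CG1648 was the only one of the 7 called on day 7 (1.97, adjusted p = 0.0404 in limma), while CG40470 and Ect3 fell short of 0.6 with -0.58 and -0.56.

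**Figure D4:**
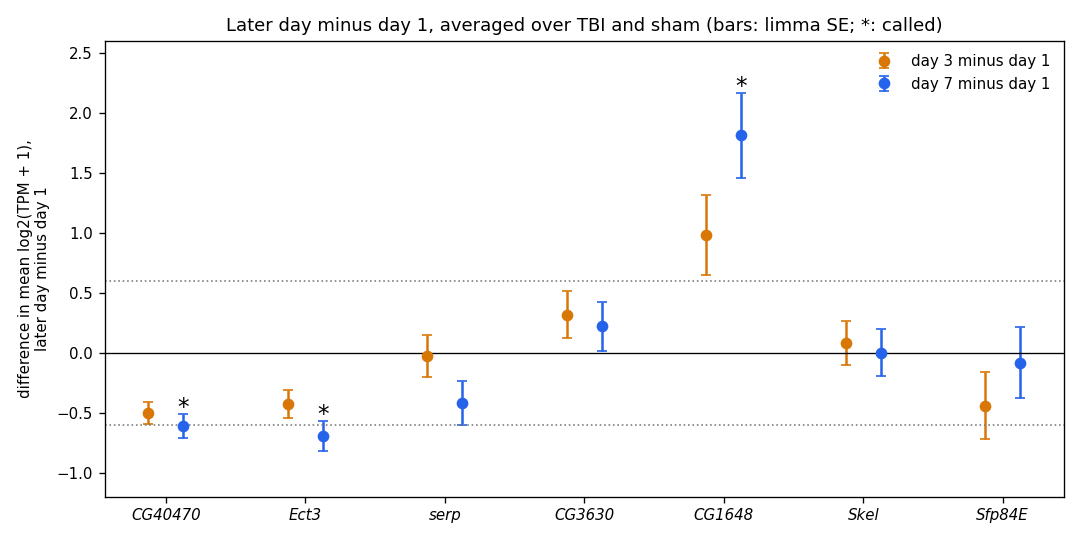
Difference of each gene in mean log2(TPM + 1) between day 3 or day 7 and day 1, averaged over TBI and sham, with bars of 1 limma standard error, dotted lines at 0.6 and asterisks on called differences. CG40470 (-0.61) and Ect3 (-0.69) are lower and CG1648 (1.81) is higher on day 7, and no difference of day 3 is called.

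In level the 2 lowered genes differed from the 5 raised ones. By mean TPM over the sham libraries, CG40470 was above 89.7% and Ect3 above 86.9% of the genes above 0. The raised genes lay in the middle or below, with CG3630 above 49.9%, Skel above 44.1%, serp above 39.4%, CG1648 above 29.6% and Sfp84E above 10.2%. The sham means over 9 libraries were 77.0 and 58.3 TPM for CG40470 and Ect3, against 0.0714 to 6.95 TPM for the raised genes. The genes were spread over the X chromosome, 2R and both arms of chromosome 3, and no pair of them was adjacent.

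Neighbouring genes in the annotation were looked at as well. Reads were assigned to transcripts with Kallisto, so they can go to the wrong gene where transcripts share sequence. Among the neighbours only Os-C shared exon bases with its member, Sfp84E. serp lies next to verm, the other chitin deacetylase gene of the pair, on the same strand and 5717 bases away. verm held 24.1, 14.3 and 10.4 TPM in TBI libraries of day 1 and 8.69, 5.53 and 5.60 TPM in sham libraries, and it rose by a log2 difference of 1.13 (standard error 0.18, adjusted p = 0.0985 in limma). On day 3 verm held 15.4, 7.69 and 6.71 TPM in TBI and 11.8, 7.49 and 7.91 TPM in sham libraries, a difference of 0.06 (adjusted p = 0.961 in limma). On day 7 verm held 14.1 and 15.1 TPM in TBI and 7.09, 9.11 and 7.31 TPM in sham libraries, a difference of 0.83 (adjusted p = 0.717 in limma). The groups of verm overlapped on day 3 and did not overlap on days 1 and 7. Trpml, a lysosomal cation channel gene on the other side of serp, did not pass on any day, with differences from -0.15 to 0.38.

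Sfp84E overlaps Os-C, a gene named for its expression in the olfactory organs, by 27 exon bases on opposite strands. Os-C held 26.8, 5.54 and 4.03 TPM in TBI libraries of day 1, against 0 in all 3 sham libraries. On day 3 it was at 4.49, 0 and 2.05 TPM in TBI and at 0.832, 0.696 and 0 TPM in sham libraries, and on day 7 at 2.66 and 6.93 TPM in TBI and at 0.546, 0.926 and 0.486 TPM in sham libraries. TBI day 1 replicate 1 was the highest library for both genes. Os-C did not pass (log2 difference on day 1 3.28, adjusted p = 0.108 in limma). The sources used here do not state that strand was used in counting. The 50-base reads are longer than the 27 shared bases, so no full-length read lies wholly within the overlap. How reads that reach into the overlap were assigned was not tested.

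**Figure D5:**
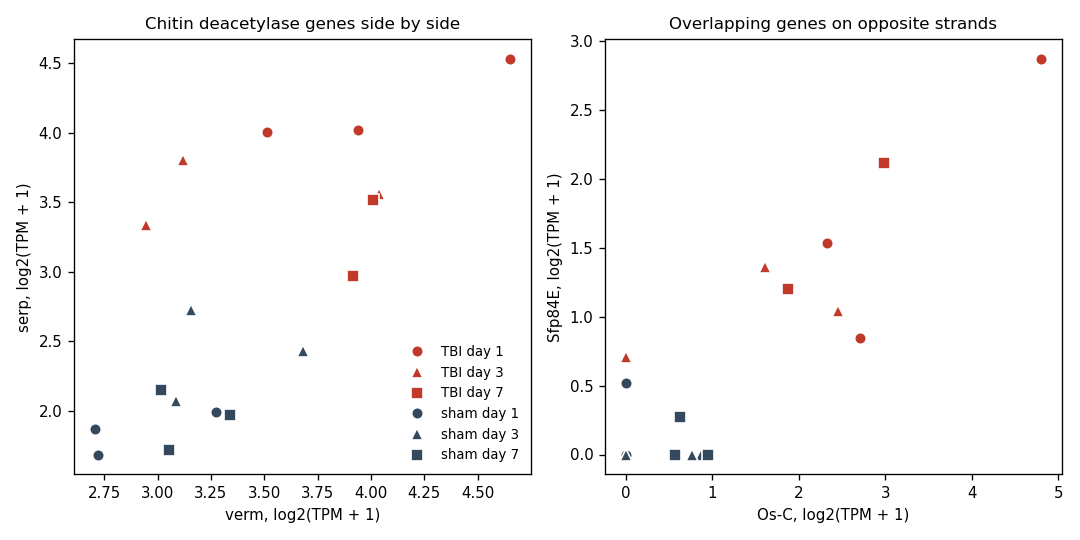
log2(TPM + 1) of serp against verm (left) and of Sfp84E against Os-C (right) in the 17 libraries, TBI in red and sham in dark blue, with the day as the symbol. serp separates TBI from sham libraries at all levels of verm, and Sfp84E is above 0.5 on this scale only in TBI libraries and in 1 sham library of day 1, with its highest value in the library where Os-C is highest.

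The other neighbours did not pass in any of the comparisons of TBI with sham. The gene span of Ect3 overlaps Tk, which encodes the tachykinin neuropeptides, on the opposite strand without shared exon bases, and Tk differed by -0.09, 0.60 and 0.16 on days 1, 3 and 7. Next to Ect3, mfas (midline fasciclin) differed by -0.54, -0.21 and -0.48 and KLHL18 by -0.01, 0.37 and 0.19. The nearest genes to CG40470 in the table lie 42105 and 52455 bases away, and of these CG40045 differed by -0.09, -0.10 and 0.28 and CG43968 by 0.23, 0.16 and 0.73.

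Both C-type lectin genes lectin-46Ca and lectin-46Cb lie within an intron of CG1648 on the opposite strand. lectin-46Cb differed by -0.44, 0.10 and 0.21 on days 1, 3 and 7 and lectin-46Ca by 0.34, 0.04 and 0.54. Of the flanking genes of CG1648, CG1688 differed by -0.25, 0.21 and 0.15, and CG34033 was at or below 0.438 TPM in all libraries. Around CG3630, the cytochrome P450 gene Cyp4d1 differed by 0.42, 0.35 and 0.45 and the complex I gene ND-B14.5A by 0.52, -0.03 and -0.29. Next to Skel, Phyhd1 differed by -0.52, -0.48 and -0.33 and pug by -0.31, 0.51 and 0.13. On either side of Sfp84E, CD98hc, which encodes an amino acid transporter subunit, differed by -0.22, -0.20 and 0.22 and the fatty acid elongase gene Elovl7 by 0.01, 0.19 and -0.03. Phyhd1 reached an adjusted p of 0.0839 in limma on day 1, short of the limit of 0.6.

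Genes with related functions were read from lists of M1 aminopeptidases, chitin genes, lysosomal genes, Skeletor partners and seminal fluid genes. On days 3 and 7 limma called 0% of 11835 and 0% of 11966 genes higher or lower, with 688 and 504 genes at an unadjusted p under 0.05, so calls of listed genes are given for day 1 and their differences for the other days. Leaving out replicate 2 of both groups, which leaves for day 7 only the TBI library rich in digestive genes, gave 628 genes and 25 listed genes called on that day.

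Among 15 M1 aminopeptidase genes tested on day 1, 3 rose, CG8773, CG31198 and CG31343, and 0 fell, with a median difference of 0.06 against 0.02 over all genes. CG31343 was at 7.11 ± 2.73 TPM in TBI and 0.129 ± 0.0561 TPM in sham libraries (SD, n = 3 each, adjusted p = 0.0360 in limma). CG8773 averaged 1.36 ± 0.167 and CG31198 9.61 ± 7.41 TPM in TBI libraries (SD, n = 3), against 0 for both in every sham library of day 1. All 3 moved opposite to CG40470. They were also high in the libraries rich in digestive enzymes, with 8.78 TPM of CG31198 in sham day 3 replicate 2 and 13.1 TPM in TBI day 7 replicate 1, against at most 0.360 TPM in the other 9 libraries of days 3 and 7.

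Of 26 lysosomal genes in the table, 25 were tested on each day, and on day 1 2 rose and 1 fell (median -0.09). LManV and LManVI, lysosomal alpha-mannosidase genes, were at 1.27 ± 0.448 and 2.16 ± 0.434 TPM in TBI libraries (SD, n = 3) and at no more than 0.0885 TPM in sham libraries. Both shared the pattern of the digestive genes, with LManVI at 0.932 TPM in sham day 3 replicate 2 and 1.14 TPM in TBI day 7 replicate 1, against 0.0682 TPM or less in the other libraries of those days. tobi, an alpha-glucosidase-like gene known as a target of brain insulin signalling, was lower on day 1 at 7.09 ± 6.16 TPM in TBI and 21.3 ± 10.2 TPM in sham (SD, n = 3 each, log2 difference -1.63, adjusted p = 0.0795 in limma). Its day 1 groups overlapped, and its day 3 difference was 1.08 (adjusted p = 0.815 in limma), and its day 7 difference was -0.17. Of the 24 lysosomal genes above 0 TPM on every day, 6 were lower after TBI on all 3 days, as Ect3 was, and 2 were higher, against 9.12% lower and 22.9% higher of 11265 genes. Gal, a beta-galactosidase gene, differed by -0.68, -0.42 and -0.25 on days 1, 3 and 7, with groups that overlapped on days 3 and 7. Hexo2, a beta-hexosaminidase gene, differed by -0.85, -0.42 and -0.61, with the same overlaps, and neither was called on any day (adjusted p of 0.166 or higher in limma). Gal and Hexo2 were named after their values were seen.

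Of 23 chitin genes, which comprise chitin synthases, chitinases, deacetylases and imaginal disc growth factors, verm was the 1 that rose on day 1 and 0 fell. Their medians were 0.03, 0.16 and 0.20 on days 1, 3 and 7, against 0.02, 0.03 and 0.23 over all genes tested. In all, 9 of the 23 were higher after TBI on all 3 days, as serp was, and 1 was lower, against 22.9% higher and 9.12% lower of 11265 genes. The chitinase gene Cht6, named after its values were seen, was the 1 free of overlap on all 3 days, with differences of 0.35, 0.23 and 0.26 that were not called. The 4 partners of Skeletor in the spindle matrix (Chro, Mgtor, east and Asator) passed on no day. On day 1 their differences were -0.26 for Chro, 0.20 for Mgtor, -0.12 for east and -0.31 for Asator. On day 7 they were 0.56, 0.78, 0.36 and 0.54 in the same order, on a day when the median gene averaging 1 TPM or more was at 0.29. Of 46 genes listed by a seminal fluid or accessory gland symbol, 24 could be tested on day 1 and 1 rose, Acp1. Acp1 is an adult cuticle protein gene that shares the symbol's letters, and it was at 55.4 ± 7.50 TPM in TBI and 3.28 ± 2.43 TPM in sham libraries (SD, n = 3 each, adjusted p = 0.0360 in limma). Of these 46 genes, 15 were listed at 0 in all libraries, among them the sex peptide gene SP.

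Among the other cell type lists, midgut genes were called most often, 16 of 27 higher on day 1, led by alphaTry with 321 ± 139 TPM in TBI and 0.460 ± 0.309 TPM in sham libraries (SD, n = 3 each, adjusted p = 0.0118 in limma). Among the 4 tracheal markers verm was the 1 that rose. In the lists for neurons, photoreceptors, muscle, fat body and hemocytes 0 genes were called on any day, but several lists moved in a direction that the 7 genes share. On day 1 all 6 fat body genes tested and all 7 photoreceptor genes were lower after TBI, with medians of -0.81 and -0.53, beside the lowered CG40470 and Ect3. The fat body medians were 0.36 and -0.53 on days 3 and 7, and those of photoreceptors 0.24 and 0.14. The fat body markers summed to 5483 to 12540 TPM in TBI and 13180 to 22150 TPM in sham libraries of day 1.

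Over all genes tested, the median TBI minus sham differences were 0.02, 0.03 and 0.23 on days 1, 3 and 7. Of 11265 genes above 0 TPM on every day, 22.9% were higher after TBI on all 3 days. Muscle markers were higher after TBI on all 3 days in 4 of 4 genes, beside the 5 raised genes, with medians of 0.22, 0.35 and 0.65. Their sums were 283 to 439 TPM in TBI and 261 to 307 TPM in sham libraries of day 1, 360.5 to 386 TPM in TBI and 228 to 292 TPM in sham of day 3, and 279 to 532 TPM in TBI and 220.3 to 297 TPM in sham of day 7. Of the 4 tracheal markers 3 were higher on day 1 and 4 on days 3 and 7, with medians of 0.21, 0.08 and 0.43. Tracheal sums were 44.7 to 81.4 TPM in TBI and 30.6 to 47.7 TPM in sham libraries of day 1. They were 49.4 to 102 TPM in TBI and 36.1 to 59.7 TPM in sham of day 3, and 77.7 to 86.0 TPM in TBI and 37.0 to 82.5 TPM in sham of day 7. After removing the 6 group means, the mean of the tracheal markers had r = 0.828 with Skel and r = 0.556 with serp. This is a description over the 17 libraries that verm, 1 of the 4 markers, enters. For the other raised genes r was 0.327 (Sfp84E), 0.143 (CG3630) and -0.249 (CG1648). For the lowered genes it was -0.0327 (CG40470) and -0.162 (Ect3). The mean of the glial markers had r = 0.7425 with Skel and r = 0.6577 with serp. With that mean r was 0.666 for Sfp84E, 0.182 for CG3630 and -0.272 for CG1648. The lowered genes CG40470 and Ect3 had r = 0.405 and r = 0.492 with it. For the mean of the chitin genes r was 0.779 with Skel, 0.328 with serp, 0.409 with Sfp84E, 0.0892 with CG3630 and -0.604 with CG1648. It was -0.189 with CG40470 and -0.274 with Ect3. Gasp, verm and kkv are in both the tracheal and the chitin list, so the values of these lists are not independent. For the mean of the midgut genes r was -0.4318 with Skel, -0.605 with serp and between -0.425 and -0.224 with the other members. The part of these cell types in the values of the 7 genes was not tested.

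The genes most like each of the 7 were found by the Pearson correlation of log2(TPM + 1) over the 17 libraries, among 8759 genes with at least 1 TPM on average. These correlations contain the difference between TBI and sham that chose the 7 genes and are given as a description. For CG40470 they were CG4829 (r = 0.947) and Ugt35B1 (r = 0.910). For Ect3 they were Oatp58Dc, an organic anion transporter gene (r = 0.975), and again Ugt35B1 (r = 0.960). After removing the 6 group means, r was 0.915 between Ect3 and Oatp58Dc and 0.862 between Ect3 and Ugt35B1. It was 0.7855 between CG40470 and CG4829 and 0.547 between CG40470 and Ugt35B1. Oatp58Dc was at 84.7 ± 6.85 TPM in TBI and 146 ± 14.7 TPM in sham libraries of day 1 (SD, n = 3 each, log2 difference -0.78, adjusted p = 0.0874 in limma), and Ugt35B1 at 177 ± 19.8 TPM in TBI and 372 ± 26.3 TPM in sham libraries (SD, n = 3 each, log2 difference -1.08, adjusted p = 0.0540 in limma). On days 3 and 7 neither passed, with differences of -0.41 and -0.75 for Oatp58Dc and -0.56 and -0.84 for Ugt35B1.

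For serp the most similar genes were Cpr100A, a cuticle protein gene (r = 0.941), and Swim, a secreted Wingless-interacting protein gene (r = 0.894). Both rose on day 1, Cpr100A by 1.53 and Swim by 1.29 (each with an adjusted p of 0.0316 in limma), and on days 3 and 7 their differences were 0.51 and 0.43 for Cpr100A and 0.62 and 0.43 for Swim, without a call. Skel was most like bark, a gene of tricellular septate junctions (r = 0.926), and FBgn0052138 (r = 0.921), and CG3630 was most like bark (r = 0.876) and hlk (r = 0.840). bark was a low gene, at 2.42 ± 0.402 TPM in TBI and 1.04 ± 0.0470 TPM in sham libraries of day 1 (SD, n = 3 each), and like hlk it was not called on any day.

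CG1648 was most like Edg91, a gene of pupal cuticle (r = 0.823), and FBgn0261642, without a symbol in the table (r = 0.821). Edg91 was low as well, at 7.01 ± 4.21 TPM in TBI and 0.738 ± 0.766 TPM in sham libraries of day 3 (SD, n = 3 each). Sfp84E was most like CecB, which encodes the antimicrobial peptide cecropin B (r = 0.916), and its overlapping neighbour Os-C (r = 0.880). CecB was at 14.5 ± 13.4 TPM in TBI and 0.244 ± 0.422 TPM in sham libraries of day 1 (SD, n = 3 each), a wide spread, and was not called (adjusted p = 0.163 in limma). FBgn0261642 was an abundant transcript, at 1134 ± 121 TPM in TBI and 872.7 ± 204 TPM in sham libraries of day 1 (SD, n = 3 each), and was not called on any day. With the group means removed, r of CG1648 was 0.646 with Edg91 and 0.669 with FBgn0261642. That of Sfp84E was 0.902 with CecB and 0.713 with Os-C.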

How the data were processed

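The deposited values are TPM per gene for 17 glial TRAP-seq libraries (amplified RNA, 50-base single-end reads), which the authors made with Kallisto on FlyBase transcripts (their text names more than 1 minor release) and summed to genes with tximport. The file keeps no counts or depth. Symbols were found for 13128 of 13479 identifiers, and positions are from the Ensembl annotation of the release 6 genome. The 7 genes, the gene lists and the tests were chosen with earlier results of these data known.

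Values were taken as log2(TPM + 1). TBI and sham were compared in each day with limma 3.58.1 (R 4.3.3; linear model, empirical Bayes with trend, Benjamini-Hochberg adjustment over all genes above 0 TPM in the day), with replicate numbers as blocks in days 1 and 3 as in the study's own design. This fit was used for genes other than the 7. A gene was called when its absolute log2 difference reached 0.6 and its adjusted p did not exceed 0.1. Days were compared on 6 group means of all libraries. The paper's count test was not run because the table holds no counts. The fits were tested on simulated data with known changes, set only in better expressed genes and larger than the called day differences of the 7. Noise in the simulation was independent between libraries. The simulation therefore says nothing about genes as low as CG1648 and Sfp84E, about differences near 0.6 or about deviations shared between libraries.

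Named genes were the 7, listed genes called on any day, the 2 most correlated genes of each, the 3 closest to the limit from below, annotated neighbours, Skeletor partners, repo and alrm; lists for other cell types are given by count and their leading gene. sls, mle, Gat, Gs2, Gal, Hexo2 and Cht6 were named after their values were seen. Alternatives were the pseudocount, 2 scalings, a mean of at least 1 TPM, stricter limits, the block, each replicate left out and 2 libraries left out. Adjusted p-values in the text are from limma. Nothing in the labels states that libraries came from independent cohorts, so p-values measure the spread between these libraries. Figures were drawn with matplotlib 3.10.9.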

Additional observations from a re-analysis of the deposited data

How the results depend on the processing

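Of the 168 TBI minus sham differences of the 7 genes under 8 alternatives, 0 changed sign. With another pseudocount or with libraries left out this was fixed in advance, because the rule asked for groups without overlap. In size, 34 of the 168 moved by more than the spread between libraries, 21 of them on day 7. The number of the 7 that met the rule was 5 to 7: 6 after upper-quartile and 5 after median-ratio scaling, 7 with a pseudocount of 0.1 TPM, 7 without the 2 libraries rich in digestive genes, 5 relative to glial markers, and 6 to 7 with a replicate left out. Skel was the gene lost without replicate 2.

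The count of the 7 called on day 7 against day 1 was 3. It was 0 at limits of 1 and 0.05, 1 without the 2 libraries rich in digestive genes and 0 to 1 with a replicate left out. Over all genes, 14 were called on day 3 against day 1: 3 at the stricter limits, 4 with median-ratio and 5 with upper-quartile scaling, 0 with a mean of at least 1 TPM, 6 with a pseudocount of 0.1, 148 without the 2 libraries and 0 to 84 with a replicate left out. On day 7 against day 1 there were 41, with 5 at the stricter limits, 187 without the 2 libraries and 3 to 195 with a replicate left out. For TBI against sham on day 1, 346 genes and 26 listed genes were called, 132 and 15 at the stricter limits, 684 genes after removing those under 1 TPM on average, and 10 to 214 genes and 3 to 15 listed genes with a replicate left out. On day 3 the 0 calls became 3 with that minimum, and on day 7 2, or 0 to 628 genes and 0 to 25 listed genes with a replicate left out. The minimum tests fewer genes; other causes were not tested.

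Same-numbered TBI and sham libraries deviated from their group means with correlations across 8766 genes of 0.00423 to 0.376 on day 1, -0.0291 to 0.451 on day 3 and 0.124 to 0.224 on day 7, so the replicate numbers do not pair all libraries. Without the replicate block 361 genes were called on day 1 and 1 on day 3. With the block as a random term the comparison of days gave 5 genes on day 3, 10 on day 7 and 0 of the 7 genes on day 7. As a fixed term it gave 11, 53 and 3.

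The table holds no counts, so values near 0 TPM (CG1648, Sfp84E) have no counting error, and day 7 rests on 2 TBI libraries. With a replicate left out, a lone TBI library is assumed to vary like the others.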
